A study of Mus musculus with 6 samples.

Results

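The 10 genes of sphingolipid synthesis were followed across 6 RNA-Seq libraries of mouse cells: *Fa2h*, *Sptlc1*, *Sptlc2*, *Sptlc3*, *Degs1*, *Degs2*, *Cers2*, *Cers5*, *Cers6* and *Ugcg*. They were taken by symbol, 10 of the 30281 gene symbols in the files. *Fa2h* was chosen by its fall with rapamycin in these same libraries, so its rapamycin values are a description with no test. The other 9 genes were listed by symbol, with no threshold.

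The libraries came from mouse embryo fibroblasts (MEFs) and from a pair of kidney epithelial cell lines, MKOC and TJ. There was 1 MEF library with the genotype Tsc2+/+ p53-/- and 1 with the genotype Tsc2-/- p53-/-, both untreated. MKOC and TJ cells were both labelled *Tsc2*-null, and TJ cells as derived from a secondary tumor in C57BL6 mice. For each kidney line there was 1 library with no treatment and 1 with rapamycin, an inhibitor of the mTORC1 kinase complex that TSC2 restrains, at 100 nM for 18 hours in serum-free DMEM with BSA. The treatment protocol names diluent as the control. Each MEF genotype and each kidney line is a single cell line, with no separate culture named, and the MKOC label gives no mouse strain. Nothing in the sources used here states which part of *Tsc2* is deleted.

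Sphingolipids are built on a long-chain base that serine palmitoyltransferase (SPT) makes from serine and palmitoyl-CoA. *Kdsr* reduces that product, ceramide synthases (Cers) attach a fatty acid whose chain length depends on the synthase, and a desaturase turns dihydroceramide into ceramide, which *Ugcg* glucosylates. *Fa2h* hydroxylates the fatty acid, giving the hydroxylated ceramides and galactolipids for which myelin, skin and kidney epithelium are known.

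Estimated counts per library summed to between 22887020 and 37505004. Levels are in TPM, a share of the library's transcripts corrected for transcript length, added up for all transcripts with a gene's symbol, and the bounds beside them are exact 95% Poisson intervals, which cover counting error only. *Tsc2* RNA was present in all 6 libraries, at 22.6 TPM in Tsc2+/+ MEFs and 10.5 TPM in the MEFs labelled Tsc2-/-. It was at 49.1 and 44.0 TPM in untreated MKOC and TJ cells, and at 19.5 and 19.1 TPM with rapamycin, so a level summed over the whole gene did not check the label *Tsc2*-null. Of 10 kidney epithelial markers, the same 7 reached 1 TPM in all 4 kidney libraries, among them the E-cadherin gene *Cdh1* (101 to 128 TPM) and the kidney cadherin gene *Cdh16* (395 to 720 TPM), while *Epcam*, *Krt19* and *Cldn7* stayed under 1 TPM. The summed level of the 10 markers was 1503 and 1708 TPM in untreated MKOC and TJ cells, and 2162 and 2539 TPM with rapamycin, although *Pax8* and *Pax2* were lower with rapamycin in MKOC cells. The summed level of 8 fibroblast markers was 4709 and 3623 TPM untreated and 7561 and 5311 TPM with rapamycin, nearly all of it from the vimentin gene *Vim* (3609 to 7523 TPM), with the collagen genes *Col1a1* and *Col1a2* under 1 TPM in all 4 libraries. The part of either list in the rapamycin results was not tested.

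The upstream sequences of *Cers5* and *Cers6* are shown because these related ceramide synthases had unlike patterns between the cell types, *Cers5* being present everywhere and *Cers6* almost absent from the kidney lines. Each run is the 250 bases before a RefSeq start site in build GRCm38.p6, 5′ to 3′ on the gene's strand, with CpG in capitals. The *Cers5* run is chr15:99772516-99772765, minus strand, and the *Cers6* run is chr2:68861191-68861440, plus strand.
Cers5: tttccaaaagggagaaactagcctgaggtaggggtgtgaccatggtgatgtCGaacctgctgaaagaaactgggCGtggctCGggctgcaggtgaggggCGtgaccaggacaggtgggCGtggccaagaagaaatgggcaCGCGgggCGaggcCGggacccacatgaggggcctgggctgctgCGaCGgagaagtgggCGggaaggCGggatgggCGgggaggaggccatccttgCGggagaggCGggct
Cers6: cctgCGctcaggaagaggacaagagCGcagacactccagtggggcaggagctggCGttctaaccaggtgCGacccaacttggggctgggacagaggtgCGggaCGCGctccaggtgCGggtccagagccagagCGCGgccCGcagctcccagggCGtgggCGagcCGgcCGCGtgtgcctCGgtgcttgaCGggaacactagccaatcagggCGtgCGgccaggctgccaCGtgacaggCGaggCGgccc
The *Cers5* run held 16 CpG and the *Cers6* run 23, against a median of 6 over 32851 RefSeq promoters, and 25.4% and 13.3% of those promoters held at least as many. The RefSeq promoter set used here held 10 such promoters for 9 of the genes (2 for *Cers2*). It held no entry for *Fa2h*, which does not show that RefSeq lacks a start site for this gene. The letters CACGTG (an E-box, which reads the same on both strands) occurred in 3 of the 10 windows, those of *Cers6*, of *Degs1* and one of *Cers2*, and in 6.02% of all promoters of this length. The letters TGACGTCA (a cAMP response element, also the same on both strands) occurred in 0 of the 10 windows and in 1.55% of all. These matches describe the letters only. The *Degs1* window matched only a short 2-exon transcript, with 10.3% to 15.9% of the gene's estimated counts, and not its main one.

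The genes fell into a group present in all cells, a group with little or no RNA in any, and a pair with more RNA in some libraries only. *Sptlc1*, *Sptlc2*, *Cers2*, *Cers5*, *Degs1* and *Ugcg* lay at 13.6 TPM or more in all 6 libraries. *Sptlc3* and *Degs2* lay at or under 1.11 TPM in all 6. *Fa2h* passed 1 TPM only in the 2 untreated kidney libraries, and *Cers6* only in the 2 MEF libraries.

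**Figure D1:**
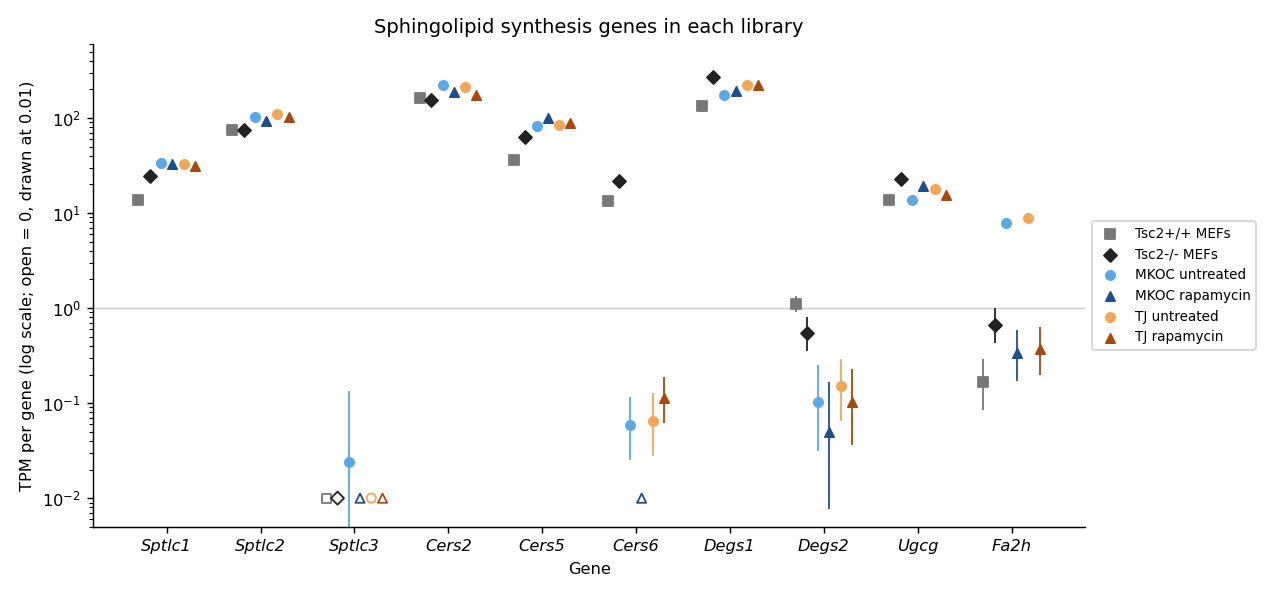
Level of each of the 10 genes in TPM (log axis) in each of the 6 libraries, with 95% Poisson intervals as bars and values of 0 drawn as open symbols at 0.01. Fa2h stood at 7.81 and 8.94 TPM in untreated kidney cells and under 1 TPM elsewhere, and Cers6 stood at 13.5 and 21.9 TPM in the MEFs and at 0.112 TPM or less in the kidney lines.

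*Fa2h* (chromosome 8, 111345135 to 111393824, minus strand, GRCm38) encodes fatty acid 2-hydroxylase. Its level was 0.165 TPM in Tsc2+/+ MEFs (0.0854 to 0.289) and 0.671 TPM in Tsc2-/- MEFs (0.430 to 0.998). In MKOC cells it was 7.81 TPM untreated (7.02 to 8.67) and 0.333 TPM with rapamycin (0.172 to 0.581). In TJ cells it was 8.94 TPM untreated (8.05 to 9.90) and 0.368 TPM with rapamycin (0.196 to 0.629). The estimated counts behind the kidney values were 353 and 12 in MKOC cells and 366 and 13 in TJ cells. The intervals of the untreated kidney libraries lay above those of the other 4, and the 2 rapamycin libraries lay between the MEF libraries. Among genes with at least 1 TPM, 24.1% lay below *Fa2h* in untreated MKOC cells and 26.1% in untreated TJ cells, so its highest level was still a low one. A 7-exon protein coding transcript carried 91.0% to 100% of its estimated counts.

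The *Fa2h* level in untreated cells was 23.5 times that with rapamycin in MKOC cells (exact 95% interval 13.3 to 45.9) and 24.3 times in TJ cells (14.0 to 46.1). In the edgeR fit across 12952 genes the log2 change was -4.67, with -4.46 in MKOC cells and -4.78 in TJ cells alone. Only 3 genes of the 12952 had a more negative log2 change. This is the contrast that chose the gene. *Ugt8a*, which adds galactose to ceramide in myelinating glia, was listed at 0 in all 4 kidney libraries.

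SPT is a complex of *Sptlc1* with *Sptlc2* or *Sptlc3*. *Sptlc1* (chromosome 13, 53332748 to 53377397, minus strand) was at 13.6 TPM in Tsc2+/+ and 24.6 TPM in Tsc2-/- MEFs. In the kidney lines it was at 33.3 TPM in untreated MKOC cells, 33.0 TPM in MKOC cells with rapamycin, 33.1 TPM in untreated TJ cells and 31.1 TPM in TJ cells with rapamycin. The counting intervals of the 4 kidney libraries overlapped, and all 4 values lay above both MEF values.

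*Sptlc2* (chromosome 12, 87305058 to 87388355, minus strand) was at 75.6 and 75.2 TPM in Tsc2+/+ and Tsc2-/- MEFs. It was at 102 TPM in MKOC cells without and 93.8 TPM with rapamycin, and at 111 and 102 TPM in TJ cells. Most of that TPM came from short transcripts annotated as processed, without a coding sequence. The only protein coding transcript of *Sptlc2* held 69.6% to 74.2% of its estimated counts but 17.6% to 20.7% of its TPM. It was at 14.0 TPM in Tsc2+/+ and 13.3 TPM in Tsc2-/- MEFs, at 18.6 and 16.5 TPM in MKOC cells without and with rapamycin, and at 23.0 and 20.7 TPM in TJ cells. Summed over all transcripts *Sptlc2* lay above *Sptlc1* in all 6 libraries, whereas its coding transcript lay near *Sptlc1* in Tsc2+/+ MEFs and below it in the other 5. *Sptlc3*, the alternative catalytic subunit, had 1 estimated count in untreated MKOC cells and 0 in each of the other 5 libraries, where the floor of 3 counts that a count of 0 allows is 0.0467 to 0.0947 TPM. SPT RNA in these cells was that of *Sptlc1* and *Sptlc2*.

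*Cers2* (chromosome 3, 95314791 to 95323599, plus strand), the synthase of very long chain ceramides, was at 162 TPM in Tsc2+/+ and 156 TPM in Tsc2-/- MEFs. It was at 224 TPM in untreated MKOC cells and 186 TPM with rapamycin, and at 212 TPM in untreated TJ cells and 175 TPM with rapamycin. Both rapamycin libraries lay below both untreated ones. A protein coding transcript with 11 exons carried 95.6% to 97.9% of its estimated counts.

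*Cers5* (chromosome 15, 99734881 to 99772885, minus strand), which prefers palmitoyl-CoA, was at 36.1 TPM in Tsc2+/+ and 63.2 TPM in Tsc2-/- MEFs. It was at 82.3 TPM in untreated MKOC cells and 100.0 TPM with rapamycin, and at 83.5 TPM in untreated TJ cells and 88.2 TPM with rapamycin. Both rapamycin libraries lay above both untreated ones. The level of *Cers5* over that of *Cers2* was 0.223 in Tsc2+/+ MEFs and 0.405 in Tsc2-/- MEFs. It was 0.367 and 0.539 in MKOC cells without and with rapamycin, and 0.395 and 0.503 in TJ cells.

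*Cers6* (chromosome 2, 68861441 to 69114282, plus strand) shares the preference of *Cers5* for palmitoyl-CoA. Tsc2+/+ MEFs held 13.5 TPM of it (2836 estimated counts) and Tsc2-/- MEFs 21.9 TPM (2177). It was at 0.0585 TPM in untreated MKOC cells, 0 in MKOC cells with rapamycin, 0.0646 TPM in untreated TJ cells and 0.112 TPM in TJ cells with rapamycin. The kidney values rest on 0 to 14 estimated counts, and for the 0 the floor of 3 counts is 0.0280 TPM. The CpG-rich upstream run printed above thus belonged to a gene with RNA in the MEFs and next to none in the kidney lines, whereas that of *Cers5* belonged to a gene with RNA in all 6 libraries.

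With the 3 other ceramide synthase genes added, *Cers2* made up 70.7% of the summed Cers TPM in untreated MKOC cells and 61.6% with rapamycin. Its shares in TJ cells were 69.8% and 63.6%. The share of *Cers5* was 26% and 33.2% in MKOC cells and 27.6% and 32.0% in TJ cells. In the MEFs, *Cers2* made up 68.7% in Tsc2+/+ cells and 59.7% in Tsc2-/- cells, with *Cers5* at 15.3% and 24.2%. The same synthase thus led in all 6 libraries, and its share was lower in both rapamycin libraries and in Tsc2-/- MEFs than in their counterparts. These shares are of RNA and carry no test.

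**Figure D2:**
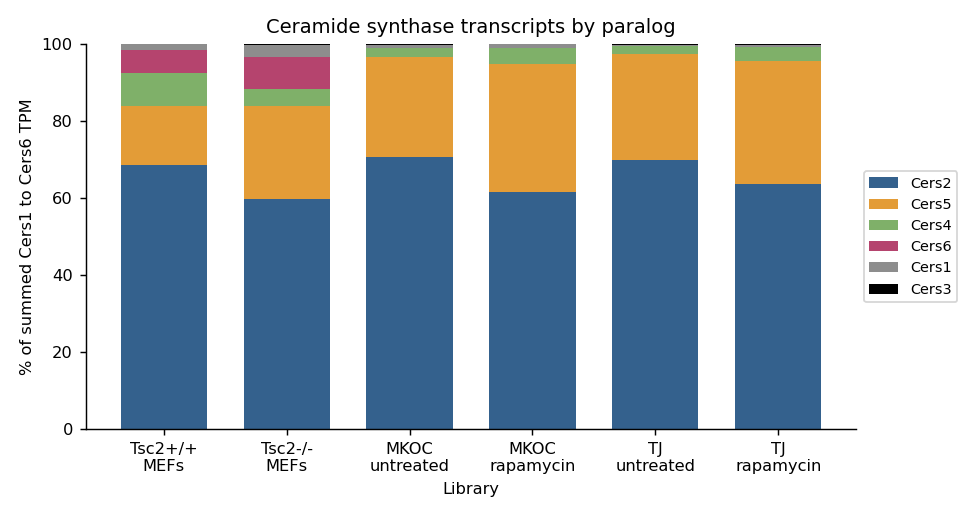
Share of each of the 6 ceramide synthase genes in their summed TPM (percent, axis from 0 to 100) in each library. Cers2 took 59.7% to 70.7%, Cers5 15.3% to 33.2%, and Cers6 was visible only in the 2 MEF libraries (5.73% and 8.40%).

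*Degs1* (chromosome 1, 182275772 to 182282804, minus strand), the main dihydroceramide desaturase, was at 135 TPM in Tsc2+/+ and 271 TPM in Tsc2-/- MEFs. It was at 176 and 192 TPM in MKOC cells without and with rapamycin, and at 224 and 221 TPM in TJ cells. Both MKOC values lay below both TJ values. A 3-exon coding transcript of *Degs1* held 83.3% to 89.4% of its estimated counts. It was at 121 and 127 TPM in MKOC cells without and with rapamycin, and at 139 and 162 TPM in TJ cells. In TJ cells it was thus higher with rapamycin, whereas the summed level was not. *Degs2* (chromosome 12, 108678711 to 108702315, minus strand), a related enzyme that also hydroxylates the long-chain base, was at 1.11 TPM in Tsc2+/+ and 0.542 TPM in Tsc2-/- MEFs. In the kidney lines *Degs2* was at 0.0502 to 0.15 TPM, from 2.35 to 8.16 estimated counts. *Degs1* was 122 and 500 times as abundant as *Degs2* in Tsc2+/+ and Tsc2-/- MEFs, and 1493 to 2148 times in the 3 kidney libraries where *Degs2* had over 3 counts.

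*Ugcg* (chromosome 4, 59189257 to 59222833, plus strand), the glucosylceramide synthase, was at 13.6 TPM in Tsc2+/+ and 23.0 TPM in Tsc2-/- MEFs. It was at 13.8 TPM in untreated MKOC cells and 19.1 TPM with rapamycin, but at 17.8 TPM in untreated TJ cells and 15.7 TPM with rapamycin. The rapamycin libraries thus did not lie to the same side of the untreated ones.

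*Cers2* and *Degs1* took the top places by level in each of the 6 libraries. By level summed over all transcripts, *Sptlc2*, *Cers5* and *Sptlc1* followed in that order in 5 of them, and in MKOC cells with rapamycin *Cers5* stood above *Sptlc2*. The coding transcript of *Sptlc2* alone lay below *Cers5* in all 6. In Tsc2+/+ MEFs *Sptlc1* (12.8 to 14.4 TPM), *Ugcg* (12.9 to 14.3 TPM) and *Cers6* (13.0 to 14.0 TPM) could not be told apart by their counting intervals. The same held for *Degs1* (186 to 197 TPM) and *Cers2* (181 to 190 TPM) in MKOC cells with rapamycin. The coding transcript of *Ugcg* alone was at 11.3 TPM in Tsc2+/+ MEFs, below the intervals of *Sptlc1* and *Cers6*. A short processed transcript with 13.4 estimated counts added 2.04 TPM there.

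To ask how rapamycin changed the pathway in the kidney cells labelled *Tsc2*-null, estimated counts were fitted in edgeR (quasi-likelihood). A term for the cell line was added, so that the 2 lines are the replicates. The p-values use a spread that edgeR moderates across all genes, so they do not measure the spread between the lines for a single gene. For *Cers2*, the standard deviation of the log2 changes of the 2 lines was 2.6e-05, while the standard error (SE) was 0.095. Besides *Fa2h*, 6 members passed the filter on low counts, and *Sptlc3*, *Degs2* and *Cers6* did not. Of these 6 genes, 1 fell (*Cers2*), 0 rose and 5 did not pass an adjusted p of 0.05. Across all 12952 genes, 17.4% fell and 17.5% rose, so a count of 1 in 6 was close to the background and is no result about these genes as a group.

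*Cers2* fell by 0.29 on the log2 scale (SE 0.095, edgeR adjusted p = 0.0361), by 0.29 in MKOC cells and by 0.29 in TJ cells. This is 0.816 times the untreated level. The call was lost under upper-quartile normalization (adjusted p = 0.0586), without the cell line in the model (adjusted p = 0.155), in DESeq2 (adjusted p = 0.0659) and in limma on log2(TPM + 1) (adjusted p = 0.0761). Over all 10 alternatives with a test, its adjusted p ranged from 0.0309 to 0.515 and its log2 change from -0.36 to -0.24.

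The first steps of the pathway gave small values. The log2 change was -0.06 for *Sptlc1* (SE 0.11, edgeR adjusted p = 0.701) and -0.14 for *Sptlc2* (SE 0.098, adjusted p = 0.286). It was +0.10 for *Degs1* (SE 0.095, edgeR adjusted p = 0.464). *Cers5* had a log2 change of +0.14 (SE 0.11, edgeR adjusted p = 0.326), from 0.25 in MKOC cells and 0.03 in TJ cells, so its 2 lines differed by more than its mean change. *Ugcg* had +0.15 (SE 0.15, edgeR adjusted p = 0.489), from 0.47 in MKOC and -0.18 in TJ cells. The median log2 change of these 6 genes was 0.02, the same to 2 decimals as the median of all genes tested.

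**Figure D3:**
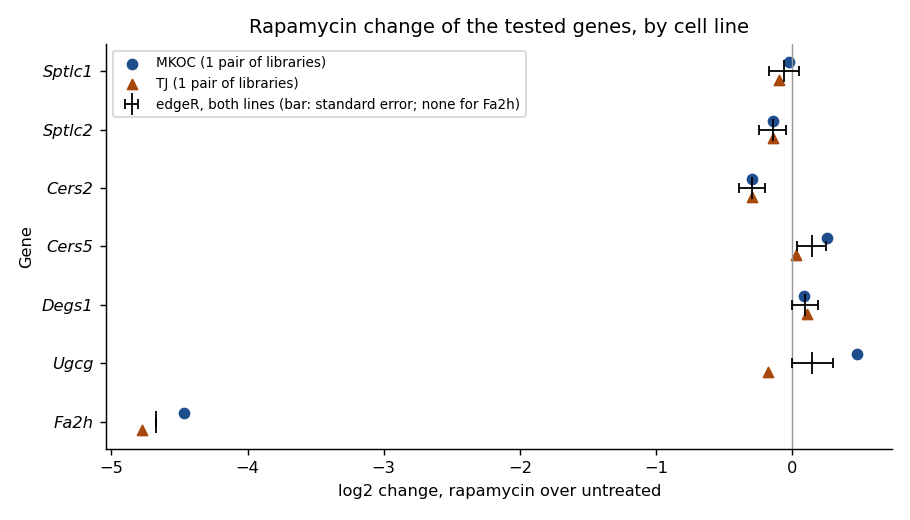
Log2 change of rapamycin over untreated for the 7 members that passed the filter, as points for MKOC and TJ cells and a vertical mark for the fit of both lines, with its standard error as a bar (none for Fa2h). Fa2h lay at -4.67 and was selected on this value, and the other 6 lay between -0.29 and 0.15 in the fit of both lines.

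Around these genes, 73 others of sphingolipid metabolism were listed in 10 roles, and 62 of them passed the filter. Of the 62, 13 rose and 8 fell with rapamycin, and 41 did not pass the test. Without the cell line in the model, 7 were called. The main count is 33.9% called, against 34.9% of all genes tested, and the median log2 change was 0.01 against 0.02.

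*Kdsr*, the reductase that acts directly after SPT, was at 4.82 TPM in untreated MKOC cells and 9.87 TPM with rapamycin, and at 4.84 and 10.1 TPM in TJ cells. It rose by 1.04 on the log2 scale (SE 0.12, edgeR adjusted p = 0.000197), which is 2.05 times the untreated level. In the MEFs it was at 9.35 TPM in Tsc2+/+ and 7.06 TPM in Tsc2-/- cells. Among the 4 SPT accessory genes tested, *Sptssa* and the ORMDL inhibitors *Ormdl1*, *Ormdl2* and *Ormdl3*, 0 passed the test. The median of the 4 was -0.14. Of the other ceramide synthase genes, *Cers4* rose (log2 change 0.58, edgeR adjusted p = 0.0109), and *Cers1* and *Cers3* did not pass. The call of *Cers4* was lost without the cell line (adjusted p = 0.124) and in DESeq2 (adjusted p = 0.0671), and it passed in 4 of 10 alternatives.

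Of 6 genes of sphingomyelin synthesis and ceramide transfer, *Sgms2*, a sphingomyelin synthase, rose (log2 change 0.46, edgeR adjusted p = 0.0209) and *Samd8*, which makes ceramide phosphoethanolamine, fell (log2 change -0.59, edgeR adjusted p = 0.0015). The other 4 did not pass. The call of *Sgms2*, with log2 changes of 0.72 in MKOC and 0.20 in TJ cells, was lost in limma (adjusted p = 0.0522) and without the cell line (adjusted p = 0.221). With single libraries left out its change was 0.11 to 0.80. Of 8 sphingomyelinase and ceramidase genes, 2 rose and 0 fell, beside the 17.5% and 17.4% of all genes.

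*Smpd3*, a neutral sphingomyelinase, was at 1.27 TPM in untreated MKOC cells and 5.15 TPM with rapamycin, and at 1.60 and 10.2 TPM in TJ cells. It rose by 2.35 on the log2 scale (SE 0.18, edgeR adjusted p = 2.1e-05), or 5.08 times. *Acer1*, an alkaline ceramidase, passed the test from 2.51 to 12.7 estimated counts per library (log2 change 1.66, edgeR adjusted p = 0.0480). It passed in 1 of 8 alternatives with a test and is a low gene throughout the kidney lines, at 0.363 TPM or less.

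In glycosphingolipid synthesis and transfer, 2 of 8 genes tested rose and 1 fell, beside the 17.5% and 17.4% of all genes. *St8sia1*, which makes the ganglioside GD3, was at 0.102 and 0.521 TPM in MKOC cells without and with rapamycin, and at 0.0902 and 0.899 TPM in TJ cells. On its estimated counts, 11.2 to 33.9 per library, the change was smaller than on TPM, with log2 changes of 1.15 in MKOC and 1.55 in TJ cells. In the fit of both it rose by 1.38 on the log2 scale (edgeR adjusted p = 0.0196), and it passed in 3 of 9 alternatives. *St3gal5*, the ganglioside GM3 synthase, fell (log2 change -0.40, edgeR adjusted p = 0.0373) and passed in 2 of 10. Of 11 glycosphingolipid hydrolase and activator genes, 2 rose and 2 fell, beside the same shares of all genes. The largest rise was that of *Gba2*, a glucosylceramidase outside the lysosome (log2 change 0.64, edgeR adjusted p = 0.00691), and the largest fall that of *Gla*, the lysosomal alpha-galactosidase (log2 change -0.67, edgeR adjusted p = 0.00183).

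Of 7 genes of sphingosine 1-phosphate, 2 rose and 1 fell, beside the 17.5% and 17.4% of all genes. *Spns2*, its exporter, had a log2 change of 0.96 (edgeR adjusted p = 0.00923), with 0.55 in MKOC and 1.33 in TJ cells, and 0.46 without the TJ library with rapamycin. The kinase gene *Sphk1* passed in 3 of 10 alternatives, and its log2 change of 0.63 (edgeR adjusted p = 0.0368) became -0.29 without that library. *Sgpp1*, a phosphatase of sphingosine 1-phosphate, had a log2 change of -0.41 (edgeR adjusted p = 0.0192). Of 7 genes of fatty acid elongation, 1 fell, *Elovl6* (log2 change -0.42, edgeR adjusted p = 0.0416), at -0.12 in MKOC and -0.72 in TJ cells. Its call passed in 2 of 10 alternatives and was lost under upper-quartile normalization, without the cell line, in DESeq2 and in limma (adjusted p = 0.0505 to 0.163). Of the last 7 genes, which break down hydroxy fatty acids and long-chain bases or carry electrons to the desaturases and hydroxylases, 2 rose and 2 fell. The shares over all genes, for this role as for the others, were 17.5% and 17.4%.

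*Hacl1*, which cleaves 2-hydroxy fatty acyl-CoA and so acts on the product of *Fa2h*, was at 17.4 TPM in untreated MKOC cells and 28.4 TPM with rapamycin, and at 19.0 and 43.2 TPM in TJ cells. It rose by 1.04 on the log2 scale (SE 0.13, edgeR adjusted p = 0.000285). The largest fall of this role was that of *Fads3*, a desaturase of the long-chain base (log2 change -0.61, edgeR adjusted p = 0.00258). Without the cell line in the model, *Gba2*, *Spns2*, *Sgpp1* and *Fads3* no longer passed (adjusted p = 0.0837 to 0.128).

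**Figure D4:**
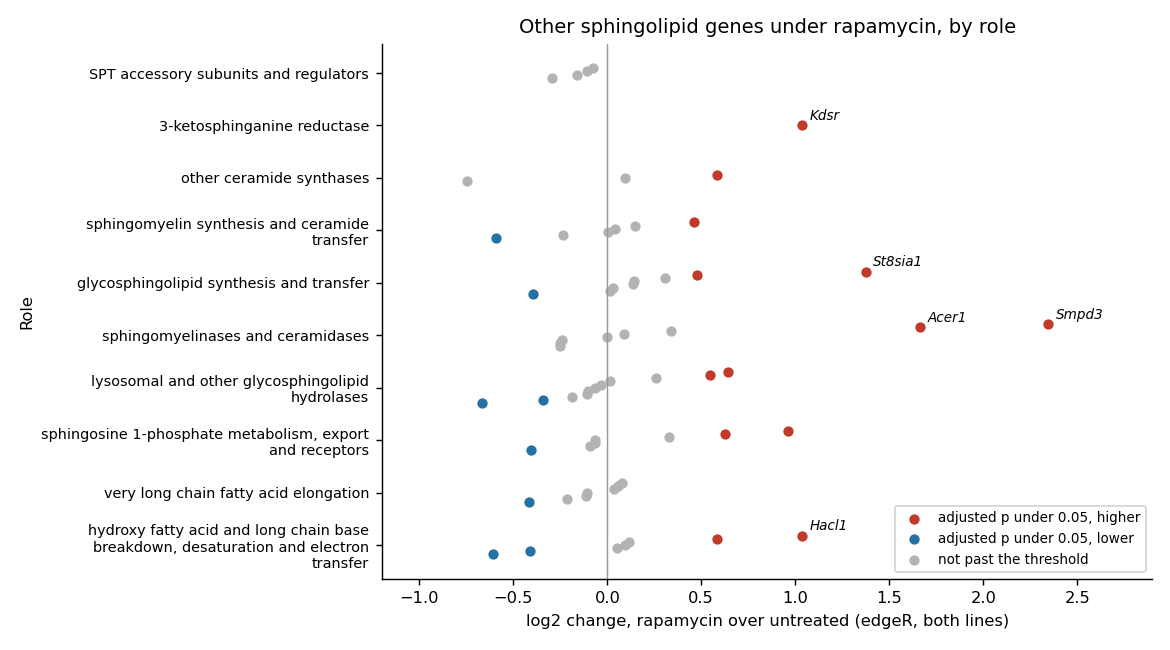
Log2 change with rapamycin in the edgeR fit for the 62 tested genes of the wider list, in 10 rows by role, with genes past an adjusted p of 0.05 in red (higher) or blue (lower) and the rest in gray. Smpd3 lay farthest to the right at 2.35, and the 13 genes that rose and the 8 that fell were spread over 9 of the 10 roles.

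To ask which of these genes differed between the MEFs labelled Tsc2-/- and Tsc2+/+, the 2 untreated MEF libraries were compared as ratios of TPM. With 1 library per genotype there is no replicate check and no test, and the intervals cover counting error only. The median ratio of Tsc2-/- over Tsc2+/+ was 1.31 over 7377 genes with at least 10 TPM in both, so ratios near it do not stand apart from the rest. The MEFs labelled Tsc2-/- also had all 6 mesothelial markers at 1 TPM or more, summing to 461 TPM against 2.71 TPM in Tsc2+/+ MEFs. The part of these other cell features in the ratios was not tested, and in bulk samples a changed share of cells and a changed level per cell cannot be told apart.

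The genes split into those above and those near or below that median. The ratio was 1.81 for *Sptlc1* (exact 95% interval 1.66 to 1.98), 2.01 for *Degs1* (1.94 to 2.08), 1.75 for *Cers5* (1.64 to 1.87), 1.62 for *Cers6* (1.53 to 1.71) and 1.69 for *Ugcg* (1.57 to 1.83). It was 0.995 for *Sptlc2* (0.942 to 1.05) and 0.961 for *Cers2* (0.927 to 0.996). The partner subunits of SPT thus had intervals that did not overlap, and so did *Cers2* and the 2 palmitoyl-preferring synthases. *Degs2* had a ratio of 0.490 (0.303 to 0.764) and *Fa2h*, under 1 TPM in both, one of 4.06 (1.95 to 8.91). The coding transcript of *Ugcg* alone was at 11.3 TPM in Tsc2+/+ and 22.7 TPM in Tsc2-/- MEFs, farther apart than the summed levels.

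Of 8 members with at least 1 TPM in either MEF library, *Degs1* alone (1 gene) reached 2-fold higher values in Tsc2-/- MEFs on the TPM + 1 scale and 0 were 2-fold lower. Over all 12771 such genes, 25.2% were 2-fold higher and 5.18% were 2-fold lower. *Degs1* lay at the edge, with a log2 difference of 1.003, and at 0.61 after scaling to the median ratio. The median log2 difference of the 8 members was 0.69 and that of all genes 0.45.

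**Figure D5:**
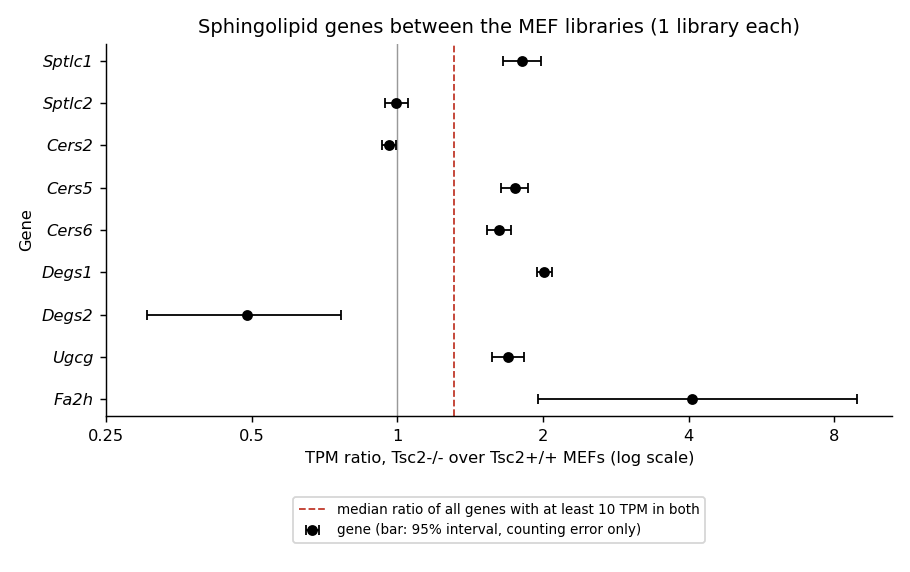
Ratio of TPM in Tsc2-/- over Tsc2+/+ MEFs (log axis) for the 9 members with counts in both libraries, with exact 95% intervals for counting error as bars. The dashed line is the median ratio of 1.31, and Sptlc2, Cers2 and Degs2 lay to its left with the other 6 to its right.

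Of 61 genes of the wider list with at least 1 TPM, 19 were at least 2-fold higher in Tsc2-/- MEFs and 2 were 2-fold lower, beside the 25.2% and 5.18% of all genes. The median log2 difference of the 61 was 0.72, against 0.45 for all genes. *Smpd3* went from 0.124 TPM in Tsc2+/+ to 12.3 TPM in Tsc2-/- MEFs, a ratio of 99.5 (63.7 to 165). *St3gal5* went from 5.97 to 57.7 TPM, a ratio of 9.66 (8.66 to 10.8), and *Arsa*, the lysosomal arylsulfatase A that removes sulfate from sulfatide, from 11.2 to 50.2 TPM, a ratio of 4.50 (4.17 to 4.86). Of these 3 genes, *Smpd3* and *Arsa* also rose with rapamycin in the kidney lines (*Arsa* by a log2 change of 0.55, edgeR adjusted p = 0.00333). *St3gal5* had a log2 change of -0.40 there, and its call was lost under upper-quartile normalization, without the cell line, in DESeq2 and in limma. Its change was 0.0079 without the untreated TJ library and -0.063 without the MKOC library with rapamycin.

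Few genes of any kind differed between the tumor-derived TJ line and the MKOC line. Of 7 members with at least 1 TPM, 0 differed 2-fold between the untreated lines in either direction, against 2.01% of 11950 genes higher and 0.887% lower in TJ cells. Of 6 members in the rapamycin libraries, 0 differed 2-fold, against 3% of 12181 genes higher and 1.26% lower. Counts of 0 are near these background shares and are no result about the members. The ratio of TJ over MKOC without treatment was 1.14 for *Fa2h* (0.985 to 1.33), 0.993 for *Sptlc1* (0.924 to 1.07) and 1.01 for *Cers5* (0.964 to 1.07), intervals that all hold 1. It was 1.27 for *Degs1* (1.23 to 1.32), 1.29 for *Ugcg* (1.19 to 1.41) and 1.09 for *Sptlc2* (1.04 to 1.14), which lie above 1 by more than the counting error, and 0.944 for *Cers2* (0.915 to 0.974), which lies below. Over the alternative ways of processing, the log2 difference of *Degs1* between the untreated lines was 0.20 to 0.35. For *Ugcg* the ratio with rapamycin was 0.819 (0.753 to 0.891), on the other side of 1. With 1 library per line and treatment, none of these differences has a replicate check.

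Set against the MEFs, the 4 kidney libraries lay above both MEF libraries for *Sptlc1*, *Sptlc2*, *Cers2* and *Cers5* and below both for *Degs2* and *Cers6*. That is 4 and 2 of 9 members with at least 1 TPM in any library. Of 13913 such genes, 26.8% lay above and 21.4% lay below. In CPM, estimated counts scaled to the library total with no regard to transcript length, the kidney values of *Sptlc2* (105 to 135) and *Cers2* (230 to 293) overlapped those of Tsc2+/+ MEFs (108 and 258). *Sptlc1* and *Cers5* stayed above, and *Degs2* and *Cers6* below. Cell type, the origin of the lines and the p53-/- label of the MEFs differ together here and cannot be told apart. RNA of Trp53, the p53 gene, was present under that label, at 26.3 and 28.5 TPM in the MEFs against 121 to 149 TPM in the kidney lines.

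Among 7063 genes with at least 5 TPM in a library and a range of at least 1 log2 unit, those whose log2(TPM + 1) over the 6 libraries was most like that of *Fa2h* were *Pgk1* (Pearson r = 0.984), *Prkar2a* (0.978), *Creg1* (0.977), *Uchl5* (0.977) and Cmah (0.967). *Pgk1*, a glycolysis enzyme, was at 1508 and 1613 TPM in untreated MKOC and TJ cells and 519 to 674 TPM in the other 4 libraries. Cmah, which hydroxylates the sialic acid of gangliosides, was at 76.5 and 65.4 TPM in untreated MKOC and TJ cells and 27.1 to 35.0 TPM in the other 4. The 6 points share 2 kidney lines and 2 treatments, so the likeness describes a common set of high and low libraries. Of the other 9 members, 4 met the same limits, with r of 0.51 for *Sptlc1*, 0.34 for *Cers5*, 0.12 for *Degs1* and -0.47 for *Cers6*. The other 5, *Cers2* among them, had a smaller range or level and were not compared.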

How the data were processed

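Poly(A)-selected RNA-Seq libraries of 6 mouse cell cultures were analysed, 1 per condition. The authors trimmed the reads with Trimmomatic and ran Kallisto (version not given in the sources used here), and deposited, for 88198 transcripts, TPM, estimated counts and 2 length columns. Their methods name a human reference, whereas the identifiers are mouse Ensembl transcripts. A further deposited column of the authors, a fold change (ratio) between the MEFs, was used only through the gene symbols beside it. Transcripts without a symbol (1006, holding 0.372% to 0.468% of the estimated counts) were left out, and 8 with 2 symbols took the first. Positions came from GENCODE M21 (GRCm38), matched by transcript identifier, and upstream sequences from RefSeq (GRCm38.p6). There were 0 columns without a sample.

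Depth was 22887020 to 37505004 estimated counts per library. A floor of 3 counts and exact 95% intervals give the precision of counting only. For rapamycin, the estimated counts were summed per symbol, rounded, passed through filterByExpr and TMM normalization, and fitted in edgeR (quasi-likelihood) on treatment with a block for the cell line. P-values were adjusted by Benjamini-Hochberg over 12952 genes, at 0.05. Lines were paired by the names in the labels, and deviations of the libraries of a line from the treatment means had a correlation of 0.562. On simulated counts the model recovered 181 of 200 changed genes of 12966, with 6 false calls. MEFs and lines were compared, with 1 library each, as TPM ratios and log2(TPM + 1) at 2-fold, among genes with at least 1 TPM.

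The members and the gene lists were chosen with earlier results of these data known. All 10 members are named. Of the wider list of 73, genes called with rapamycin at a log2 change of at least 1, genes changed 4-fold between MEFs with at least 10 TPM, and the largest rise and fall of each role are named, with the 5 genes most like *Fa2h*. Alternatives were other normalizations, no filter, no block, DESeq2, limma, each library left out, other pseudocounts, median-ratio scaling, single transcripts and CPM. Tools were R 4.3.3, edgeR 4.0.16, limma 3.58.1, DESeq2 1.42.0, matplotlib 3.10.9, scipy 1.17.1, pandas 2.3.3, numpy 2.4.6 and Python 3.11.15.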

Additional observations from a re-analysis of the deposited data

Results flagged for a closer look

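*Ugcg*, the glucosylceramide synthase, moved in opposite directions with rapamycin in the 2 kidney lines. The TPM ratio of rapamycin over untreated was 1.39 in MKOC cells (exact 95% interval 1.27 to 1.51) and 0.878 in TJ cells (0.809 to 0.954). The intervals cover counting error only, and the difference between the lines was not tested, since each line had 1 library per treatment.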

How the results depend on the processing

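With 1 library per condition the rapamycin calls rest on 2 cell lines. *Fa2h* carries no test, and the 1 member called (*Cers2*) became 0 called under upper-quartile normalization, with no replicate block, in DESeq2 and in limma, and 0 to 0 when each library was left out; it was kept under RLE normalization and with no filter. With no replicate block, 1275 genes were called in all and 7 of the wider list, in place of 4526 and 21. Leaving out a library meant a fit without the block, in which the remaining library of an arm is assumed to vary like the others, and called 0 (without untreated TJ cells) to 613 genes in all (96 without untreated MKOC cells, 531 without TJ cells with rapamycin) and 0 to 3 of the wider list. These fits have fewer samples. Over libraries and lines left out, the log2 change turned sign for *Degs1* (-0.046 to 0.22), *Ugcg* (-0.18 to 0.47), *St3gal5* (-0.82 to 0.0079) and *Sphk1* (-0.29 to 1.37). The log2 change of *Fa2h*, whose direction the choice of the gene fixed, was -4.78 to -2.79, the latter on log2(TPM + 1), where the added 1 shrinks changes of low genes. Between the MEFs, the 1 member past 2-fold (*Degs1*) became 0 with 5 TPM added, after median-ratio scaling and in CPM, and none of the 8 members with at least 1 TPM changed sign. Genes under about 1 TPM (*Sptlc3*, *Degs2*, *Cers6* in kidney cells) are limited by depth.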
